A study of Locusta migratoria with 12 samples.

Results

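miR-252 was followed by its 2 arms, the mature strands cut from either side of its hairpin, in fat body of the migratory locust Locusta migratoria. The members were chosen by their read counts. Among arthropod names of miR-252 or miR-252a, the row with the highest total over the 12 libraries was kept for each arm. These were dme-miR-252-5p for the 5p arm, written miR-252-5p here, and tca-miR-252a-3p for the 3p arm, written miR-252-3p, which makes 2 members among 100 miRNAs. A miRNA here is a set of rows of the 26711 names in the table that held the same reads under several species names.

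Fat body of adult females was sampled on days 0, 2, 4 and 6 after eclosion, the moult to the adult, with 3 small RNA libraries per age. All females were untreated as far as the labels say, and strain, phase and rearing are not given in the labels. The labels do not tell whether the 3 libraries of an age are from different animals. The p-values therefore speak of the spread from library to library, part of which may be technical.

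A microRNA is a short RNA that guides Argonaute proteins to messenger RNAs and lowers their output, mostly through its seed at the 5′ end. miR-252 occurs in insects and many other invertebrates and is not found in vertebrates. In Drosophila melanogaster its 5p strand has been linked to growth control, and in the cockroach Blattella germanica lowering its 3p strand slowed nymphal growth. The insect fat body stores nutrients and, in adult female locusts, makes yolk proteins under juvenile hormone in the days after eclosion.

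The libraries held between 387427 counts, in day 0 replicate 1, and 2309395 counts, in day 2 replicate 1, summed over the 100 miRNAs. Day 0 replicate 1 stood apart: its median correlation with the other libraries across miRNAs was 0.858, against 0.928 to 0.979 for the other 11 libraries. It also held 2214 counts of miRNAs named only in moths and butterflies among arthropods, against 0 to 11 in each other library. It is 1 of the 3 day 0 libraries, and the results against day 0 are given with it and without it. No miRNA is listed here as defining for fat body, so the tissue label was checked only against lists for other tissues. Of the nervous system list (miR-124, miR-7, miR-315, miR-137, miR-219, miR-210 and miR-1000), miR-124, miR-137, miR-219 and miR-210 reached no miRNA of 120 counts in all, and the other 3 summed to 412 to 1428 CPM (counts per 1e6 counts, before further scaling). The ovary and early embryo list, miR-989 and miR-309, had 0 measured members. The muscle miRNAs miR-1 and miR-133 summed to 100, 686 and 339 CPM in the day 6 libraries, against 431, 3528 and 1897 CPM in the day 0 libraries, and the gut miRNA miR-281 to 55.9, 644 and 238 CPM on day 6, against 767, 1632 and 124 CPM on day 0; their part in the results was not tested.

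The table held 67 names of miR-252 in all its forms, and 26 of them had counts. Of the 18 arthropod names of the 5p arm, counting those without an arm in the name, all 18 had counts, in 10 distinct profiles. Of the 9 arthropod names of the 3p arm, 1 had counts. None of the 14 locust names in the table was a miR-252 name, so the reads were counted against names from other species.

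Nearly all 5p reads fell under a shared set of names. dme-miR-252-5p totalled 56895 counts over the 12 libraries, and 3 other fruit fly rows held the same counts in every library. Just outside that tie, 5 rows such as hme-miR-252 of a butterfly totalled 56840. In all, 14 of the 18 arthropod 5p rows held at least 90% of the highest total, the lowest of them with 53406 counts. The other 4 rows held 153 counts or fewer, and the highest of these was ame-miR-252a of the honeybee. The 18 names of miR-252b, a paralogue named in some species, had 0 counts together in the 12 libraries. A count of 0 allows an expected count of up to 3, here for the sum over these names and libraries.

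By the counts under these names of other species, miR-252-5p was a moderately abundant miRNA and its 3p strand a rare one. In the fit of all libraries, levels are normalised CPM, scaled with TMM factors. By mean level miR-252-5p ranked number 23 of the 88 miRNAs tested, at 4210 CPM, just under miR-317 (4595 CPM) and just above miR-71 (4096 CPM). miR-252-3p ranked number 57, at 72.1 CPM, between miR-315 (98.8 CPM) and a row named only in mouse, miR-466i-5p (64.3 CPM). The 5p mean includes 14875 CPM in day 0 replicate 1. Without that library miR-252-5p ranked number 24 of 89, at 3153 CPM, between miR-71 (3891 CPM) and miR-307-3p (2262 CPM). In that fit miR-252-3p ranked number 56, at 74.4 CPM.

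On day 0, miR-252-5p stood at 14875 CPM in replicate 1, 2399 CPM in replicate 2 and 2317 CPM in replicate 3. On day 2 it stood at 2634, 3026 and 2916 CPM. On day 4 it stood at 3364, 3011 and 3335 CPM. The day 0 group thus held both the highest and the lowest levels of the 5p arm, and the 9 later libraries lay between them. On day 6 the 3 libraries stood at 3613, 4593 and 4442 CPM, above every library of days 2 and 4 on this scale. The differences from days 2 and 4 were not called with all libraries in the fit, as given below. How many of all miRNAs separated likewise is not given here, so this separation is a description only.

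In raw counts the same library stood out. miR-252-5p had 7908 counts in day 0 replicate 1, which was 2.04% of that library (95% Wilson interval 2.0 to 2.09%). In day 0 replicates 2 and 3 it had 5535 and 4845 counts, or 0.253% (0.246 to 0.26%) and 0.259% (0.252 to 0.266%). Over the 9 later libraries its share ran from 0.256% in day 2 replicate 1 to 0.42% in day 6 replicate 2. On this scale day 6 was not apart from the earlier ages: day 6 replicate 1, at 0.306%, lay below day 2 replicates 2 and 3 (0.313% and 0.315%) and day 4 replicates 1 and 3 (0.328% and 0.33%). The intervals cover counting error only.

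miR-252-3p had its lowest value in day 0 replicate 1, but counting error there was wide. Its share of that library was 0.00336% (Wilson interval 0.00196 to 0.00574%). This interval overlapped those of day 0 replicate 2 (0.00475 to 0.00676%) and replicate 3 (0.00358 to 0.00549%). On day 0 the levels of miR-252-3p were 24.5, 53.7 and 39.7 CPM in replicates 1, 2 and 3, from 13, 124 and 83 counts. On day 2 they were 69.0, 66.1 and 72.0 CPM, from 155, 48 and 77 counts. On day 4 they were 102, 102 and 91.9 CPM, from 213, 106 and 117 counts. These ages did not overlap: every day 2 library lay above every day 0 library, and every day 4 library above every day 2 library. Neither of these steps was called in the fits given below. The share of all miRNAs that separated likewise is not given here, so the separations are a description only. On day 6 the levels were 76.9, 81.7 and 85.2 CPM, from 112, 46 and 99 counts, under every day 4 library and above every day 2 library. As a share of all counts, day 6 replicate 1 (0.00652%) lay below every day 2 library (0.00671 to 0.00778%), while the other separations held.

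**Figure D1:**
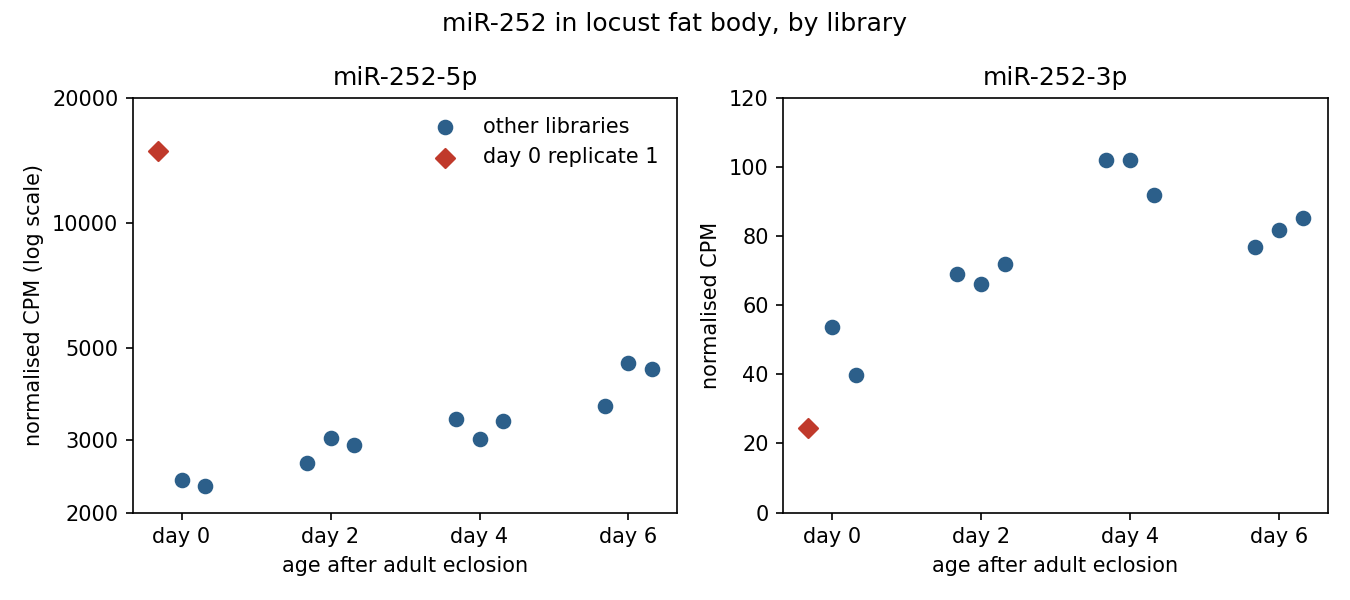
Normalised CPM of miR-252-5p (left, log scale) and miR-252-3p (right) in the 12 libraries by age, 1 point per library; day 0 replicate 1 is the red diamond. It is the highest point for the 5p arm, at 14875 CPM, and the lowest for the 3p arm, at 24.5 CPM, from 13 counts.

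Set against day 0 with all 12 libraries, miR-252-5p had log2 changes of -1.19 (SE 0.58) on day 2, -1.01 (SE 0.58) on day 4 and -0.63 (SE 0.57) on day 6, in edgeR's quasi-likelihood test across all miRNAs. None was called at a Benjamini-Hochberg adjusted p under 0.05, with adjusted p of 0.17, 0.188 and 0.387. The same test called 13.6% of the 88 miRNAs on day 2, 29.5% on day 4 and 40.9% on day 6. The day 0 libraries averaged 6530 ± 7227 CPM (SD, n = 3), a spread larger than their mean. The call at day 2 turned with single libraries: without day 0 replicate 2 the change was -1.59 (edgeR adjusted p = 0.0469).

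Without day 0 replicate 1 the sign of the 5p changes turned. The levels, scaled again over the remaining 11 libraries, were 2360 and 2165 CPM on day 0. They were 2508, 2800 and 2896 CPM on day 2, 3307, 2867 and 3322 CPM on day 4, and 3687, 4468 and 4302 CPM on day 6. With TMM factors each later age lay wholly above day 0, and day 6 wholly above the others, while days 2 and 4 overlapped in part. The share of all miRNAs that separated likewise is not given here. By share of counts the separation was not complete: day 2 replicate 1 (0.256%) lay below day 0 replicate 3 (0.259%), and day 6 overlapped days 2 and 4 as given above.

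In this fit miR-252-5p rose on day 6, to 4152 ± 412 CPM (SD, n = 3), against 2262 ± 138 CPM in the 2 remaining day 0 libraries, a log2 change of 0.88 (SE 0.17, edgeR adjusted p = 0.0025). It also rose on day 4, to 3165 ± 258 CPM, by 0.48 (SE 0.17, edgeR adjusted p = 0.0432). On day 2, at 2735 ± 202 CPM, the log2 change of 0.27 (SE 0.17) was not called (edgeR adjusted p = 0.276). The fit called 48.3% of 89 miRNAs on day 6, 38.2% on day 4 and 21.3% on day 2, with medians over those miRNAs of 0.29, 0.06 and 0.04 on the log2 scale.

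The 5p calls depended on the scaling. As a share of total counts, without day 0 replicate 1, the log2 change was 0.50 on day 6 (edgeR adjusted p = 0.0528) and 0.29 on day 4 (edgeR adjusted p = 0.254), so neither was called, while the medians of all miRNAs were -0.08 and -0.14. With RLE factors the day 6 change was 0.81 (edgeR adjusted p = 0.0043) and the day 4 change was 0.42 (edgeR adjusted p = 0.0873). With the replicate number as a block the day 4 change was 0.52 and its call also ended (edgeR adjusted p = 0.0675).

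A turn of sign with this library was found in 10.2 to 20.5% of miRNAs, depending on the age. Of the 88 miRNAs in both fits, 9 (10.2%) had opposite signs with and without it on day 6, and 2 of these were called without it, miR-252-5p and miR-34-5p. On day 4 there were 11 such miRNAs (12.5%), of which 1, miR-252-5p, was called, and on day 2 there were 18 (20.5%) with 0 called. The 5p change moved by 1.51 on day 6 when the library was left out, the number 7 in size of the 88 miRNAs. That of the 3p arm moved by -0.19, number 69 in size.

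**Figure D2:**
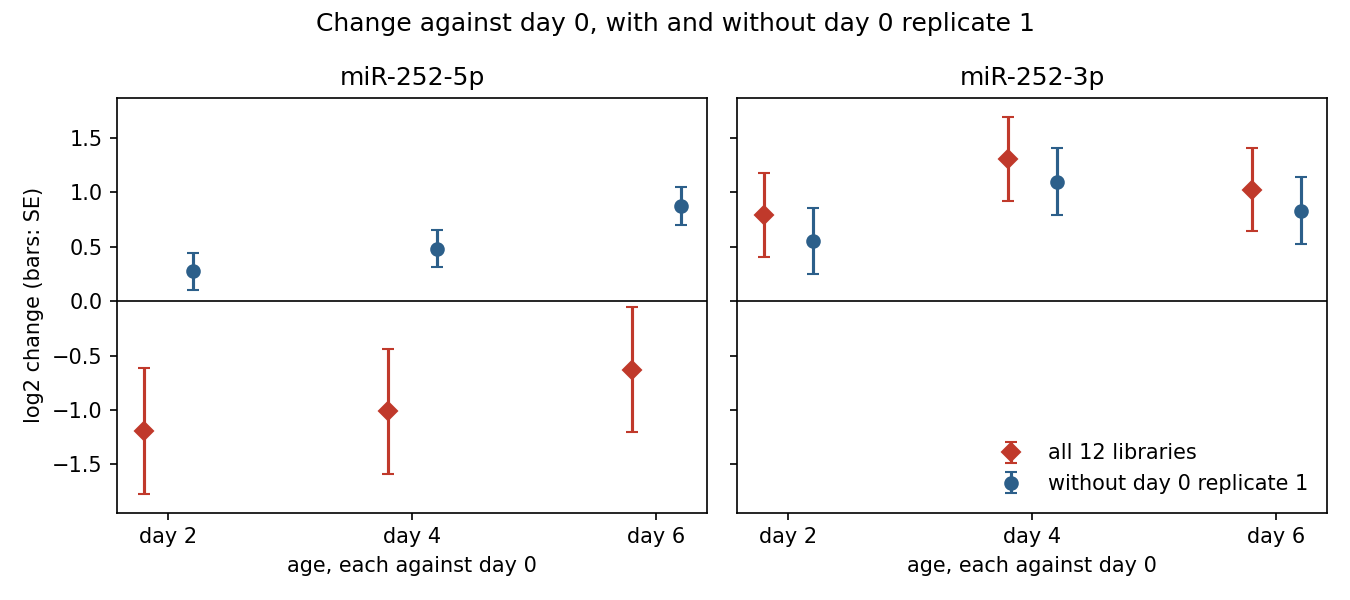
Log2 change of each arm on days 2, 4 and 6 against day 0, with all 12 libraries (red diamonds) and without day 0 replicate 1 (blue circles); bars are standard errors. The 5p arm lies below 0 at each age with that library and above 0 without it, at -0.63 with it and 0.88 without it on day 6, and the 3p arm stays above 0.

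miR-252-3p rose on day 4 with all libraries, to 98.8 ± 5.99 CPM, against 39.3 ± 14.6 CPM on day 0 (SD, n = 3 each). Its log2 change was 1.31 (SE 0.39, edgeR adjusted p = 0.026), in a comparison that called 29.5% of miRNAs. The change was 1.10 (SE 0.31, edgeR adjusted p = 0.0172) without day 0 replicate 1. The call ended without day 0 replicate 3 (1.34, edgeR adjusted p = 0.0583) and without day 4 replicate 1 (1.28, edgeR adjusted p = 0.0826), 2 (1.26, edgeR adjusted p = 0.0919) or 3 (1.30, edgeR adjusted p = 0.0881).

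On day 6 the 3p strand stood at 81.3 ± 4.14 CPM, against 39.3 ± 14.6 CPM on day 0 (SD, n = 3 each), a log2 change of 1.03 (SE 0.39) and a call at the edge of the threshold (edgeR adjusted p = 0.0499). Leaving out single libraries ended it in 10 of 12 fits, all but those without day 0 replicates 1 and 2, with adjusted p over the 12 fits of 0.0311 to 0.127. Without day 0 replicate 1 the change was 0.83 (SE 0.31, edgeR adjusted p = 0.0448), and with total counts and all libraries it was 0.61 (edgeR adjusted p = 0.178). On day 2, at 69.0 ± 2.96 CPM, the change of 0.79 (SE 0.38) was not called (edgeR adjusted p = 0.17), and it was 0.56 (SE 0.30, edgeR adjusted p = 0.235) without that library.

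Between the later ages, which do not involve day 0, miR-252-5p averaged 4216 ± 528 CPM on day 6, against 2859 ± 203 CPM on day 2, a log2 change of 0.56. With all libraries in the fit this was not called (SE 0.57, edgeR adjusted p = 0.694), in a comparison that called 1.14% of miRNAs. Without day 0 replicate 1, which entered only through the shared estimate of the spread and the scaling, miR-252-5p rose by 0.60 (SE 0.15, edgeR adjusted p = 0.0327) and 10.1% of miRNAs were called. With total counts that change was 0.29 (edgeR adjusted p = 0.259) and was not called, against a median of -0.35 for all miRNAs. In a fit of days 2, 4 and 6 alone it was 0.50 (SE 0.16, edgeR adjusted p = 0.0788), and with the replicate block and without day 0 replicate 1 it was 0.60 (edgeR adjusted p = 0.0551), neither called.

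The single steps gave smaller values. For day 6 against day 4 the log2 change of miR-252-5p was 0.38 (SE 0.57, edgeR adjusted p = 0.933), or 0.39 (SE 0.15, edgeR adjusted p = 0.271) without day 0 replicate 1, while that of miR-252-3p was -0.28 (SE 0.38, edgeR adjusted p = 0.933). For day 4 against day 2 it was 0.18 (SE 0.57, edgeR adjusted p = 0.972) for the 5p arm and 0.52 (SE 0.38, edgeR adjusted p = 0.914) for the 3p arm. For day 4 against day 2, edgeR called 0 of 88 miRNAs, which is 0% (5 at an unadjusted p under 0.05, and DESeq2 called 1), and 2.25% without day 0 replicate 1. For day 6 against day 4 it called 0% with all libraries (6 at an unadjusted p under 0.05, and DESeq2 called 0) and 0% without that library (12 at an unadjusted p under 0.05). For day 6 against day 2, the log2 change of miR-252-3p was 0.23 (SE 0.38, edgeR adjusted p = 0.779), and -0.033 with total counts.

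Tested over the 4 ages at once, neither arm was called with all libraries (edgeR adjusted p = 0.35 for the 5p arm and 0.095 for the 3p arm), where 25% of miRNAs were. Without day 0 replicate 1 the 5p arm was called (edgeR adjusted p = 0.00798) and the 3p arm was not (edgeR adjusted p = 0.0615), and 38.2% of miRNAs were. With total counts and without that library the 5p call over the 4 ages ended (edgeR adjusted p = 0.199). DESeq2 called the 3p arm over the 4 ages with all libraries (adjusted p = 0.000122).

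The balance of the arms needs no scaling, since both come from the same library. Its level depends on names of other species: 18 of 18 arthropod 5p names had counts, but 1 of 9 arthropod 3p names. How far the match to that 1 name sets the 3p share was not tested. The 3p share of the miR-252 counts was 0.164% in day 0 replicate 1 (95% Wilson interval 0.0959 to 0.281%), and 2.19% (1.84 to 2.61%) and 1.68% (1.36 to 2.08%) in the other day 0 libraries. It was 2.55%, 2.14% and 2.41% on day 2. It was 2.95%, 3.28% and 2.68% on day 4, the highest of the 4 ages. On day 6 it was 2.08%, 1.75% and 1.88%. Day 0 replicate 1 lay far below all others, and day 4 lay above and day 6 below every library of day 2. Arm shares of other miRNAs are not given here, so these separations are a description only.

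Put as a ratio, there were 608 5p counts per 3p count in day 0 replicate 1, against 44.6 and 58.4 in the other day 0 libraries and 29.5 to 56.2 in the 9 later libraries. The ratio differed over the 4 ages in an exact permutation test of its log2 value (p = 0.048 with 12 libraries, and p = 0.00604 without day 0 replicate 1). Over days 2, 4 and 6 alone, a set chosen after the values were seen, the exact p was 0.00357, the smallest that 3 ages of 3 libraries allow. With all 12 libraries the result rested on single libraries: leaving out any 1 of the 9 later ones gave exact p of 0.144 to 0.212.

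Between pairs of ages, log2 of the 5p to 3p ratio was 5.68 ± 0.13 on day 6, against 5.03 ± 0.15 on day 4, a difference of 0.65 (SD, n = 3 each; two-sided exact p = 0.1, the smallest that 3 against 3 allow). Day 4 was 0.33 below day 2, which stood at 5.36 ± 0.13, and day 6 was 0.32 above day 2, with exact p = 0.1 for each. Day 6 lay 0.01 above the 2 remaining day 0 libraries, at 5.67 ± 0.27 (exact p = 0.9). Day 4 was 0.64 below those libraries (exact p = 0.1, the smallest that 3 against 2 allow). In none of the 6 pairs of ages could this exact test fall below 0.1.

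**Figure D3:**
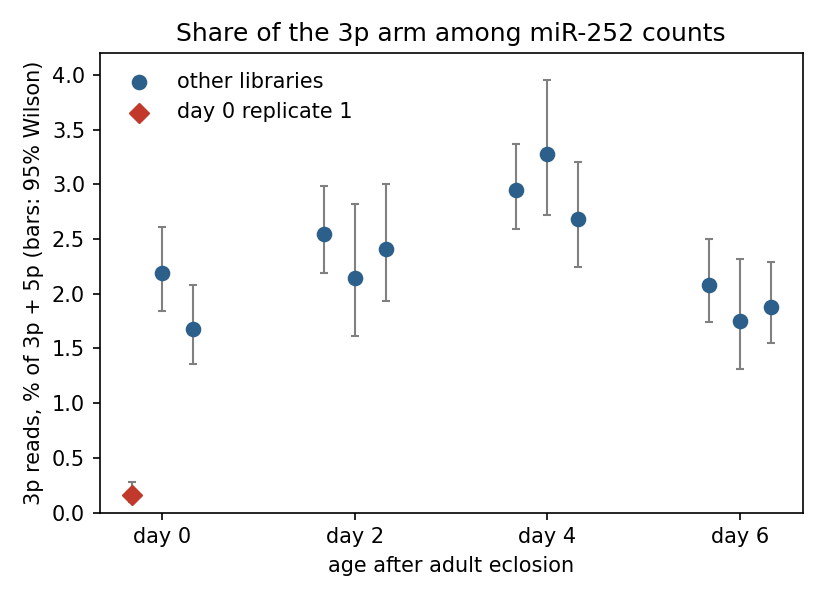
Share of 3p reads among the 5p and 3p counts of miR-252 in each library, by age, with 95% Wilson intervals that cover counting error only. Day 0 replicate 1 (red diamond) stands at 0.164%, the other libraries at 1.68 to 3.28%, with day 4 highest.

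Day 0 replicate 1 departed from its age group in many miRNAs. Its level of miR-252-5p was 6.31 times the mean of the other day 0 libraries, or 2.66 on the log2 scale, which was number 8 of the 88 miRNAs from the top. miR-252-3p lay 0.92 below those libraries on the log2 scale with 0.5 CPM added, number 50 of 88, and the median miRNA lay 0.47 below. The 5p arm thus stood far above its age group in that library. The 3p arm, from 13 counts, lay nearer the median miRNA. Whether the reads of moth and butterfly names in that library bear on its level of miR-252-5p was not tested.

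**Figure D4:**
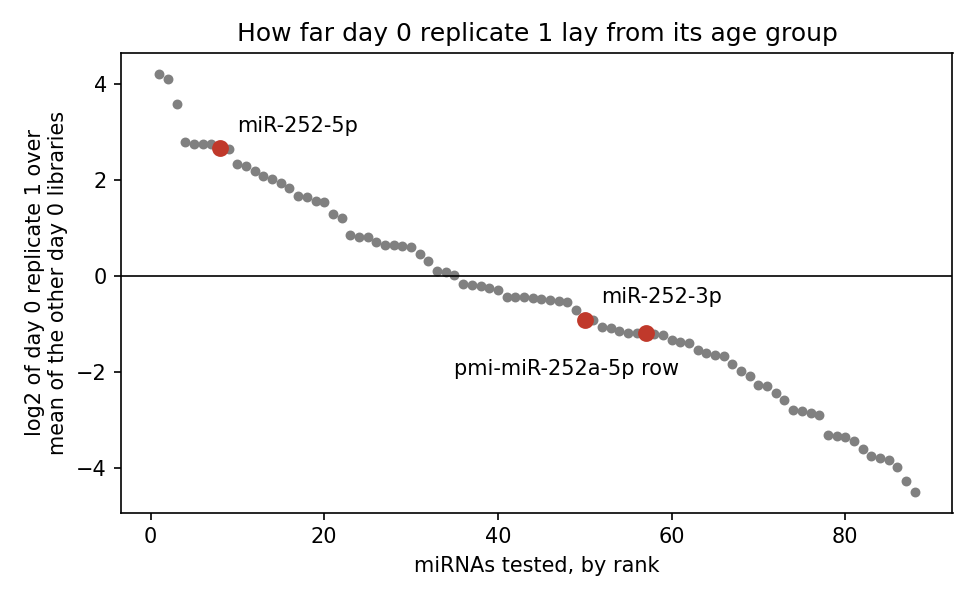
Log2 of the level in day 0 replicate 1 over the mean of the other day 0 libraries for the 88 miRNAs tested, ordered from highest to lowest. miR-252-5p is number 8 at 2.66, while miR-252-3p and the row pmi-miR-252a-5p lie below 0.

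The rows of other species give a further view of the 5p reads. Both lancelet rows, bbe-miR-252a-5p and bfl-miR-252a, held 3587 counts each. Their counts were 4.55% of those of dme-miR-252-5p in day 0 replicate 1, under the 5.59 to 8.97% of the other 11 libraries. The mosquito rows aae-miR-252-5p and cqu-miR-252-5p held 92.2% in that library, against 93.5 to 96.6% elsewhere. The beetle row tca-miR-252a-5p held 92.7%, within its 92.3 to 95.4% elsewhere, and the honeybee row ame-miR-252a 0.329%, within its 0.135 to 0.342%. The silkworm row bmo-miR-252-5p held 98.25%, within its 98.01 to 99.23% elsewhere. The row cte-miR-252a held 91.0%, just under its 91.1 to 93.98% elsewhere. Day 0 replicate 1 thus lay outside the other libraries for the lancelet and mosquito rows and for cte-miR-252a. It lay within them for the beetle, honeybee and silkworm rows, which was not tested.

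A rare row named in a sea star, pmi-miR-252a-5p, kept a profile of its own and was tested as a separate miRNA. It had 1, 14 and 8 counts on day 0, 29, 10 and 17 on day 2, 37, 8 and 18 on day 4, and 26, 11 and 15 on day 6. Against dme-miR-252-5p this was 0.0126% in day 0 replicate 1 and 0.165 to 0.545% in the other libraries. It rose against day 0 by 1.70 (SE 0.52, edgeR adjusted p = 0.0468) on day 2, 1.62 (SE 0.51, edgeR adjusted p = 0.0326) on day 4 and 1.94 (SE 0.52, edgeR adjusted p = 0.0128) on day 6. It rose by 1.49, 1.45 and 1.77 without day 0 replicate 1 (edgeR adjusted p = 0.0305, 0.0241 and 0.00807). It had 1 count in day 0 replicate 1, the smallest library. That is too few to tell its level there from that of the other day 0 libraries. Its share of dme-miR-252-5p was low there while dme-miR-252-5p itself was high. Its counts are few, and the authors' counting may have split reads among these names.

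The miRNAs whose levels ran most like miR-252-5p over the 12 libraries, by Pearson's r of log2 CPM, were miR-275 (r = 0.925), which is needed for blood digestion and egg development in mosquitoes, miR-34-5p (0.873), miR-317 (0.768), odi-miR-7 (0.764), a row named in a tunicate, and a vertebrate-named let-7f-5p (0.764). Over the 11 libraries without day 0 replicate 1 they were miR-8-3p (0.883), miR-79 (0.808), miR-317 (0.796), miR-1a-3p (0.77), a form of the muscle miRNA miR-1 named mainly in vertebrates, and miR-378 (0.768), named in mammals. Of the first 5, miR-317 was among the second 5. These libraries share ages and scaling, so the values are a description only. Both miR-252-5p and miR-275 had their highest level in day 0 replicate 1. There miR-275 stood at 86491 CPM, against 18486 to 26059 CPM in the other libraries.

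The order was steadier for miR-252-3p. Over 12 libraries it ran most like miR-750 (r = 0.959), miR-8-3p (0.924), miR-995-3p (0.913), miR-8-5p (0.904) and miR-9c-5p (0.902), and the same 5 miRNAs came first without day 0 replicate 1, from 0.923 for miR-750 to 0.78 for miR-9c-5p. The r between the 2 arms of miR-252 themselves was -0.51 over 12 libraries and 0.68 over 11.

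Insect miRNAs tied to moulting and metamorphosis were set beside miR-252 as a list of 14 names (let-7, bantam, miR-2, miR-8, miR-13, miR-14, miR-34, miR-71, miR-100, miR-125, miR-276, miR-277, miR-278 and miR-281), which had 23 tested forms. On day 6, 2 were called higher than on day 0 and 7 lower, with a median log2 change of -0.36, against 14 higher and 22 lower (40.9%) and a median of 0.17 for all 88 miRNAs tested. On day 4, 2 were called higher and 6 lower (median -0.73), against 11 and 15 of all 88 (29.5%, median -0.01). On day 2, 1 was called higher and 4 lower (median -0.28), against 5 and 7 of all 88 (13.6%, median 0.05). Without day 0 replicate 1, 4 were called higher and 9 lower on day 6 (median -0.56), against 21 and 22 of all 89 (48.3%, median 0.29). In that fit 2 and 8 were called on day 4 (median -0.37), against 15 and 19 of all (38.2%, median 0.06), and 2 and 5 on day 2 (median -0.24), against 10 and 9 of all (21.3%, median 0.04). With all libraries the share of the list called on day 6 was thus near that of all miRNAs. Without day 0 replicate 1 the share of the list was slightly above that of all miRNAs. This small difference was not tested, and several of the 23 forms belong to the same miRNA.

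Of this list, both arms of miR-8, a regulator of insulin signalling and growth in flies, rose on day 6: miR-8-3p by 1.69 (SE 0.46, edgeR adjusted p = 0.0128) and miR-8-5p by 1.18 (SE 0.25, edgeR adjusted p = 0.0045). miR-34-5p, which responds to the moulting hormone ecdysone in flies, was called only without day 0 replicate 1, with a log2 change of 0.98 on day 6 (SE 0.37, edgeR adjusted p = 0.0485). A row of its own with the names of miR-8 in flies and mosquitoes, aae-miR-8-3p, fell by 4.32 (SE 1.02, edgeR adjusted p = 0.00717), with 1800 CPM in day 0 replicate 1 and 93.7 to 115 CPM in the other day 0 libraries. miR-100 fell by 2.0 and miR-125-5p by 1.95, both of the let-7 cluster, and miR-278 fell by 2.28 (edgeR adjusted p = 0.00631, 0.00603 and 0.00245). let-7 itself fell by 0.77 and miR-276b by 2.19 (edgeR adjusted p = 0.0227 and 0.0128). A separate row of miR-125 fell by 2.42 with all libraries (edgeR adjusted p = 0.0227), and its change without day 0 replicate 1 was -0.83 and not called (edgeR adjusted p = 0.145). Apart from that row of miR-125, the forms called on day 6 with all libraries were also called in the same direction without day 0 replicate 1, with log2 changes of 1.29 for miR-8-3p, 1.09 for miR-8-5p, -1.61 for aae-miR-8-3p, -1.18 for miR-100, -1.11 for miR-125-5p, -1.52 for miR-278, -0.56 for let-7 and -2.52 for miR-276b. Called only in that fit on day 6, beside miR-34-5p, were miR-13b-3p (0.58), miR-276-3p (-0.68), bantam (-0.72) and bantam-3p (-1.85), with edgeR adjusted p of 0.0314, 0.00302, 0.0106 and 0.0226. These are separate comparisons with the same day 0 libraries as those of miR-252.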

How the data were processed

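Small RNA of locust fat body was sequenced from 12 libraries, 3 at each of 4 ages, with TRIzol extraction and an Illumina library protocol, per the labels' protocols. The authors deposited raw counts per mature miRNA name. How reads were mapped, to which miRNA release and with which mismatches is not given in the sources used here; no miRNA sequence was at hand, so none is printed. Groups and replicate numbers come from sample titles, and columns were matched through the descriptions; 0 columns belonged to other samples.

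Of 26711 names, 5500 had counts. Rows with a total of at least 120 (1513) were joined where they held the same reads: within 25% plus 5 counts in each library for the same miRNA number and within 5% plus 3 counts for others, which gave 154 profiles. Profiles at a constant share of a larger one (factor 1.5 or 2.5 counting SDs, 1 library allowed outside) were joined next, which gave 100 miRNAs. Each took the counts of its most abundant row.

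Ages were compared with edgeR 4.0.16 under R 4.3.3, with limma 3.58.1 loaded: TMM factors, filterByExpr (minimum count 10, 88 miRNAs, or 89 without day 0 replicate 1), glmQLFit and glmQLFTest with age as a factor, adjusted over all miRNAs tested. The SE is the log2 change over the square root of F. The arm ratio used 0.5 added counts and every arrangement of libraries over ages. As alternatives, each comparison was run with DESeq2 1.42.0, with RLE factors or total counts as the scaling, without the filter, with a replicate block, with only the libraries compared, all rows, each library left out, and a pseudocount of 1 or summed profiles for the ratio. The test over days 2, 4 and 6, and other scalings without day 0 replicate 1, were added after seeing the data. The scripts were tested on simulated data. Python 3.11.15, pandas 2.3.3, NumPy 2.4.6, SciPy 1.17.1 and matplotlib 3.10.9 were used.

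Named miRNAs were the 2 members, other miR-252 rows with counts, the neighbours of each arm in mean level, the 5 miRNAs most alike to each arm, and called members of the moulting list. The members and lists were chosen with earlier results of these data known, so tests of the members are not independent of that choice.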

Additional observations from a re-analysis of the deposited data

How the results depend on the processing

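Replacing one choice at a time left the sign of every miR-252-5p change against day 0 negative, except where day 0 replicate 1 was left out. Leaving out each library in turn gave 5p changes of -1.59 to 0.27 on day 2, -1.41 to 0.48 on day 4 and -1.07 to 0.88 on day 6, and the positive ends are those without day 0 replicate 1. Added after seeing the data, fits without that library gave 0.19, 0.42 and 0.81 with RLE factors and with DESeq2, 0.20, 0.29 and 0.50 with total counts and 0.31, 0.52 and 0.91 with the replicate block, on days 2, 4 and 6. Of the calls without that library, the day 4 one ended with RLE, total counts and the block (adjusted p = 0.0873, 0.254 and 0.0675), and the day 6 one with total counts (0.0528). For miR-252-5p over the 4 ages, the adjusted p ran from 0.00798 to 0.462 with single libraries left out, and without day 0 replicate 1 it was 0.0122 with RLE, 2.14e-06 with DESeq2 and 0.0225 with the block, but 0.199, not called, with total counts. Its change on day 6 against day 2 ran from 0.50 to 0.68 with single libraries left out. Without day 0 replicate 1 it was called at 0.63 with RLE and with DESeq2, and not called at 0.60 with the block (adjusted p = 0.0551) or 0.29 with total counts (adjusted p = 0.259). DESeq2 gave miR-252-5p no adjusted p with all libraries, and so no value over the 4 ages.

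For miR-252-3p against day 0, leaving out libraries gave 1.10 to 1.60 on day 4 and 0.83 to 1.32 on day 6. The day 4 call ended with only the libraries compared (1.27) and, without day 0 replicate 1, with the block (1.10). The day 6 call ended with total counts (0.61), no filter (1.07), the block (1.06), only the libraries compared (0.95) and all rows (1.34), and without day 0 replicate 1 with RLE (0.78), total counts (0.46) and the block (0.84). With total counts the day 6 against day 2 change was -0.033 with and without that library. DESeq2 called the 3p arm over the 4 ages (adjusted p = 0.000122, or 0.000935 without that library). The exact p of the arm ratio ran from 6.49e-05 to 0.212. The causes were not tested.

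The number of miRNAs called on day 2 was 21 with DESeq2, 0 with only the libraries compared and 232 with all rows, and 6 to 24 with libraries left out. On day 4 it was 13 and 346 with only the libraries compared and all rows, and 13 to 34. On day 6 it was 22 with the block, 11 with only the libraries compared and 426 with all rows, and 18 to 43. Day 4 against day 2 gave 1 with DESeq2, 2 with only the libraries compared, and 0 to 2. Day 6 against day 2 gave 0 with RLE, the block and all rows, 3 with total counts and with DESeq2, 4 with only the libraries compared, and 0 to 9. All rows counts the same reads under many names.

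The replicate numbers of the titles did not pair the libraries: 7 of 18 same-numbered pairs had a correlation over 0.1 (-0.688 to 0.366), and 3 of 12 libraries correlated best with their own number. For replicate 1 the title number does not follow the column numbers, as given above. The 13 counts of miR-252-3p in day 0 replicate 1, the smallest library, limit the 3p values and arm ratios that include it.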
